A study of Bos taurus with 15 samples.

Results

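Bovine blastocysts cultured in vitro with extracellular vesicles from oviductal fluid (oEVs), whether the vesicles were used fresh or after freezing, were compared as 1 group of 10 libraries with 5 control libraries cultured without vesicles (Co), and the genes that lay on the same side of Co with both preparations were then described. The oEV group held 5 libraries of embryos that received freshly isolated vesicles (FeEV) and 5 of embryos that received frozen-thawed vesicles (FoEV), so that all 15 libraries of the series entered. Both preparations were split from vesicles of the same oviducts, per the study, so that their agreement is not that of independent vesicle sources. Of the 10832 genes in the filtered table, 200 had an unadjusted p under 0.05 and the same direction in both FeEV vs. Co and FoEV vs. Co (1.85% of the genes tested), 98 of them higher (0.905%) and 102 lower (0.942%) in the supplemented embryos. No gene passed this threshold in opposite directions. The 5 Co libraries served both contrasts, so that a Co library that stands apart moves both in the same direction, and the 200 genes are given as a description of these libraries and not as calls.

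Every group was made of in vitro produced blastocysts, taken on day 7 of culture per the labels, and every library came from 1 ng of total RNA of a pool of 8 to 14 embryos. The vesicles came from oviductal fluid of slaughterhouse cows staged as postovulatory from their ovaries, no other agent differed between the groups per the labels, and the study sequenced the pools with the best RNA quality and concentration. The sources used here do not say whether the pools of a group came from separate cultures, so that the p-values measure the spread between these libraries. Levels are CPM, the read counts of a gene brought to a common library size after TMM scaling, and they are compared only between libraries for the same gene, since they are not corrected for gene length. Summed marker levels, the levels of single markers given beside them, and genes outside the filtered table are CPM of the library totals without TMM scaling. Totals ran from 2136713 to 4058887 counts per library, and 8 of the 10 oEV libraries held more counts than every Co library (difference in means 577140 counts, two-sided exact permutation test, p = 0.0549, with 0.000333 as the smallest p possible). Ribosomal RNA genes took 15.5% to 28.2% of the counts per library, with a difference between oEV and Co of -0.802 percentage points (exact permutation p = 0.729).

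The embryo spends its first days in the oviduct, whose epithelium and fluid hold vesicles that carry proteins, lipids and RNA and can be taken up by cells. The blastocyst consists of the trophectoderm, an outer epithelium that pumps ions and fluid into the cavity and later forms the placenta, and of an inner cell mass that gives rise to the epiblast and the hypoblast. Culture outside the oviduct is known to alter the activity of genes for metabolism, protein quality control and stress responses.

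Over all genes, no separation of supplemented from control embryos was detected. The pseudo-F of the distances between libraries was 1.30 (exact permutation p = 0.132), and it ranged from 1.08 to 1.37 when each library was left out in turn. A single gene was called in oEV vs. Co at an edgeR adjusted p under 0.05, which is 0.00923% of the genes tested. At an unadjusted p under 0.05, 1023 genes passed (9.44%), of which 548 were higher (5.06%) and 475 lower (4.39%) in oEV. Without Co replicate 4 these were 351 and 300 genes, so that counts of list members under the same threshold are to be read against a share that itself moves with this library. The log2 fold change was above 0 in 52.2% of all genes. With the preparations kept apart, 449 genes (4.15%) passed in FeEV vs. Co and 1631 (15.1%) in FoEV vs. Co. At an unadjusted p under 0.001, 22 genes passed (0.203%), but 11 without Co replicate 4, 14 without Co replicate 1 and 37 without Co replicate 2. Without Co replicate 4, the number of genes with the same direction in both treatments was 134 in place of 200.

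The called gene was the long noncoding RNA NEAT1, the RNA scaffold around which the nuclear bodies called paraspeckles assemble. It is uncharacterized in the bovine annotation, and its name comes from the human counterpart that the study's supplement gives for this identifier. NEAT1 rose in oEV vs. Co and was higher with each preparation. Its levels were 265, 415, 352, 272 and 353 CPM in Co replicates 1 to 5, 573, 533, 776, 485 and 673 in FeEV and 739.8, 703, 432, 580.3 and 723 in FoEV. All 10 oEV libraries lay above all Co libraries, and the lowest of them, FoEV replicate 3, was close to the highest Co library, replicate 2. The mean ± SD of 5 libraries was 331 ± 63.03 CPM for Co, 608 ± 117 for FeEV and 636 ± 129.9 for FoEV. The log2 fold change was 0.91 in oEV vs. Co (standard error 0.14, edgeR quasi-likelihood test, adjusted p = 0.0345), 0.88 in FeEV vs. Co and 0.94 in FoEV vs. Co, and FoEV did not differ from FeEV beyond the spread (unadjusted p = 0.698).

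The direction of NEAT1 was the same in all 26 alternative fits, with log2 fold changes of 0.77 to 1.00, while its adjusted p lay on either side of the threshold. It stayed under 0.05 in 13 of the 26 fits. The call was lost without Co replicates 1, 3, 4 or 5 (edgeR adjusted p = 0.183, 0.123, 0.221 and 0.147), without FeEV replicates 2 or 5 (0.0506 and 0.0822) and without FoEV replicates 1, 2, 4 or 5 (0.0676, 0.0885, 0.0905 and 0.0702). It was also lost with the replicate number as a block (0.0661), without a filter on low counts (0.0606) and in the 3-group fit with the mean of both treatments (0.0916). With all counts thinned to the total of the shallowest library, the adjusted p was 0.00645. In RNA of whole pools, a change in the number of cells of a type and a change in RNA per cell cannot be told apart, here and in all results below.

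Among the other noncoding RNAs of the nucleus, the telomerase RNA component TERC was also higher in all 10 oEV libraries than in all Co libraries, at 33.9 to 42.3 CPM in Co, 43.5 to 63.1 in FeEV and 52.1 to 101 in FoEV. RMRP, the RNA of RNase MRP, had 169.6 to 299 CPM in Co, 234 to 335 in FeEV and 312 to 721 in FoEV, and overlapped. Both differed more with frozen than with fresh vesicles, with log2 fold changes of 0.29 and 0.36 in FeEV vs. Co against 0.93 and 1.2 in FoEV vs. Co. Their unadjusted p in FoEV vs. FeEV were 0.00108 and 0.00122 (edgeR adjusted p = 0.447 and 0.447). NEAT1 was therefore the member of this list of 7 tested genes that had an unadjusted p under 0.05 in both FeEV vs. Co and FoEV vs. Co.

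**Figure D1:**
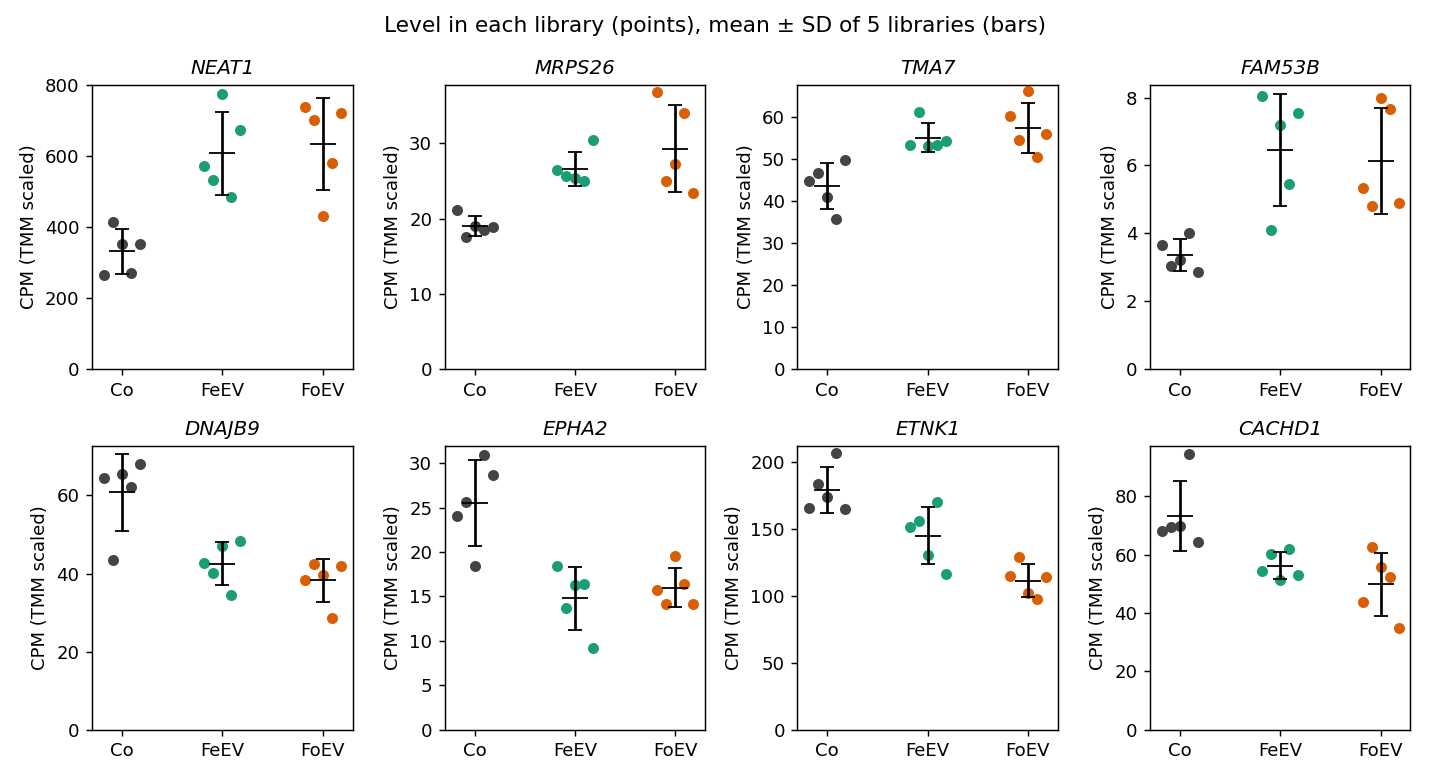
Level of 8 genes in each library, in CPM after TMM scaling on axes that start at 0, for Co, FeEV and FoEV. Points are the 5 libraries of a group in the order of their replicate numbers, and bars are the mean and SD. NEAT1, MRPS26, TMA7 and FAM53B lay above all Co libraries in all 10 oEV libraries, and CACHD1 below all of them, whereas DNAJB9, EPHA2 and ETNK1 overlapped with Co in 1 or 2 oEV libraries.

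The genes that were higher with both preparations were led, after NEAT1, by MRPS26, a protein of the small subunit of the mitochondrial ribosome. MRPS26 (gene 516004) had 21.1, 17.5, 19.03, 18.5 and 18.9 CPM in Co, 26.5, 25.6, 25.3, 25.05 and 30.4 in FeEV and 36.8, 24.97, 27.3, 34.1 and 23.4 in FoEV. Each oEV library lay above each Co library, and the log2 fold change in oEV vs. Co was 0.56 (standard error 0.13, edgeR adjusted p = 0.348). TMA7 (gene 615251), which encodes a small protein associated with the translation machinery, had 44.8, 46.6, 40.96, 35.7 and 49.7 CPM in Co, 53.3, 61.3, 53.2, 53.3 and 54.2 in FeEV and 60.2, 54.5, 66.1, 50.4 and 55.9 in FoEV. The groups did not overlap, the highest Co library being replicate 5 and the lowest oEV library FoEV replicate 4.

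FAM53B (gene 104968470) was low throughout, with 3.65, 3.04, 3.22, 4.01 and 2.87 CPM in Co, 8.05, 4.08, 7.19, 5.47 and 7.54 in FeEV and 5.33, 4.79, 7.99, 7.68 and 4.91 in FoEV. Its groups did not overlap, but no Co library reached 4.73 CPM. Every gene of the filtered table had at least this level in 5 or more libraries, a limit read from the deposited tables that is somewhat above the minimum stated in the methods. FAM53B thus met it only through the oEV libraries. The same held for APLP1, FBXO47, KDF1 and LOC100294952, 5 of the 98 higher genes in all, and for 0 of the 102 lower genes. APLP1, which encodes an amyloid precursor-like protein of the cell surface, had 0.967 to 2.41 CPM in Co and 1.88 to 6.01 in oEV. Its log2 fold change of 1.41 (standard error 0.35) was the largest of the 12 higher genes described here and rested on the lowest levels. LRRC2, a leucine-rich repeat protein, had 6.93, 7.76, 9.67, 6.42 and 9.03 CPM in Co, 14.9, 11.9, 17.2, 8.20 and 15.6 in FeEV and 15.98, 15.6, 12.1, 13.02 and 11.2 in FoEV, and only FeEV replicate 4 lay among the Co libraries.

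The remaining higher genes named by rank overlapped with Co in 1 to 4 oEV libraries. NUDT16, a hydrolase of nucleoside diphosphate-linked compounds, had 2.01 to 6.13 CPM in Co and 4.47 to 9.49 in oEV, with Co replicate 3 apart from the other Co libraries. SORD, the enzyme that oxidizes sorbitol to fructose, had 93.1 to 108 CPM in Co and 99.2 to 133 in oEV, with 9 of 10 oEV libraries above all Co libraries. GDPD5, a phosphodiesterase that acts on glycerophosphodiesters, had 18.2 to 32.9 CPM in Co and 28.6 to 45.1 in oEV. The DNA helicase FBH1 had a log2 fold change of 0.45, the microtubule-binding CLIP2 of 0.55 and the uncharacterized LOC512464 of 0.63. For these 11 genes beside NEAT1, the edgeR adjusted p in oEV vs. Co lay between 0.348 and 0.388.

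The lower genes were led by DNAJB9, a co-chaperone of the endoplasmic reticulum that works with BiP. DNAJB9 (gene 614588) had 64.5, 43.5, 65.5, 62.2 and 68.1 CPM in Co, 42.6, 40.1, 46.9, 34.6 and 48.3 in FeEV and 38.4, 42.4, 39.7, 28.7 and 41.98 in FoEV. Co replicate 2 lay among the oEV libraries, and the other Co libraries lay above all of them. The log2 fold change was -0.58 in oEV vs. Co (standard error 0.12, edgeR adjusted p = 0.226, the second smallest of the comparison), and without Co replicate 2 it was -0.68. The adjusted threshold was passed without that library, without a filter on low counts, with the likelihood ratio test and with DESeq2.

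A pair of receptor tyrosine kinases followed. EPHA2 (gene 512798), a receptor for ephrin-A ligands on neighbouring cells, had 24.1, 25.6, 18.4, 30.9 and 28.7 CPM in Co, 18.5, 13.7, 16.3, 16.4 and 9.22 in FeEV and 15.7, 14.1, 19.6, 16.4 and 14.2 in FoEV. FLT3 (gene 512700) had 63.8, 55.3, 66.8, 69.8 and 57.5 CPM in Co, 59.6, 41.6, 50.99, 45.1 and 36.9 in FeEV and 42.8, 45.2, 37.7, 41.1 and 37.6 in FoEV. For EPHA2 Co replicate 3 lay within the oEV range, and for FLT3 FeEV replicate 1 lay within the Co range. The log2 fold changes in oEV vs. Co were -0.72 and -0.51 (standard errors 0.15 and 0.11, edgeR adjusted p = 0.233 for both), and FLT3 passed the adjusted threshold without FeEV replicate 1, with the likelihood ratio test and with DESeq2.

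ETNK1, the kinase of the first step of phosphatidylethanolamine synthesis from ethanolamine, was the gene called in FoEV vs. Co (log2 fold change -0.68, edgeR adjusted p = 0.0196), and it also lay lower with fresh vesicles. ETNK1 (gene 540705) had 166, 184, 174, 207 and 165 CPM in Co, 152, 156, 131, 170.3 and 117 in FeEV and 115, 129, 102, 97.5 and 114 in FoEV. All FoEV libraries lay below all Co libraries, and FeEV replicate 4 lay within the Co range. The call was lost, with 0 genes called in FoEV vs. Co, without Co replicates 3 or 4 and without FoEV replicates 1, 4 or 5. In FeEV vs. Co the log2 fold change was -0.31 (unadjusted p = 0.00855), and the difference between FoEV and FeEV had an unadjusted p of 0.00190 (edgeR adjusted p = 0.450). Of the 15 genes tested in ethanolamine and choline phospholipid synthesis, CHKB, a choline and ethanolamine kinase, was higher with both preparations, at 27.7 to 31.6 CPM in Co and 30.8 to 50.1 in oEV, and ETNK1 was lower with both. The other 13 genes of the route had an unadjusted p above 0.05 in oEV vs. Co.

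In 4 of the 12 lower genes named by rank, all 10 oEV libraries lay below all Co libraries. ZNF568, a zinc finger protein, had 20.4, 21.9, 20.96, 19.3 and 18.5 CPM in Co, 12.2, 14.1, 14.1, 13.2 and 11.7 in FeEV and 12.5, 16.4, 17.6, 13.4 and 12.5 in FoEV. CACHD1, a membrane protein related to calcium channel subunits, had 68.2, 69.5, 69.7, 94.3 and 64.4 CPM in Co, 54.2, 60.2, 51.3, 61.9 and 53.1 in FeEV and 43.8, 62.6, 55.7, 52.4 and 34.9 in FoEV. The Co libraries of CACHD1 lay close together apart from replicate 4, which was higher. TMEM263, a membrane protein, had 15.5 to 22.1 CPM in Co and 9.81 to 14.9 in oEV. SUSD1, a protein with sushi domains, had 17.4 to 22.98 CPM in Co and 5.68 to 16.6 in oEV.

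The last lower genes named by rank overlapped between the groups. CTSL, the lysosomal protease cathepsin L, had 321 ± 56.7 CPM in Co (SD, n = 5) and 242 ± 30.1 in oEV (SD, n = 10), with 6 oEV libraries below all Co libraries. SGK1, a kinase that acts on ion transport, had 201 ± 24.6 CPM in Co and 151 ± 23.4 in oEV. CPEB4, a regulator of cytoplasmic polyadenylation, had 107 ± 9.78 CPM in Co and 77.5 ± 14.4 in oEV. SCHIP1, a protein that binds the tumour suppressor merlin, had 12.7 ± 2.81 CPM in Co and 7.78 ± 1.06 in oEV. The edgeR adjusted p of the 12 lower genes in oEV vs. Co lay between 0.226 and 0.388.

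**Figure D2:**
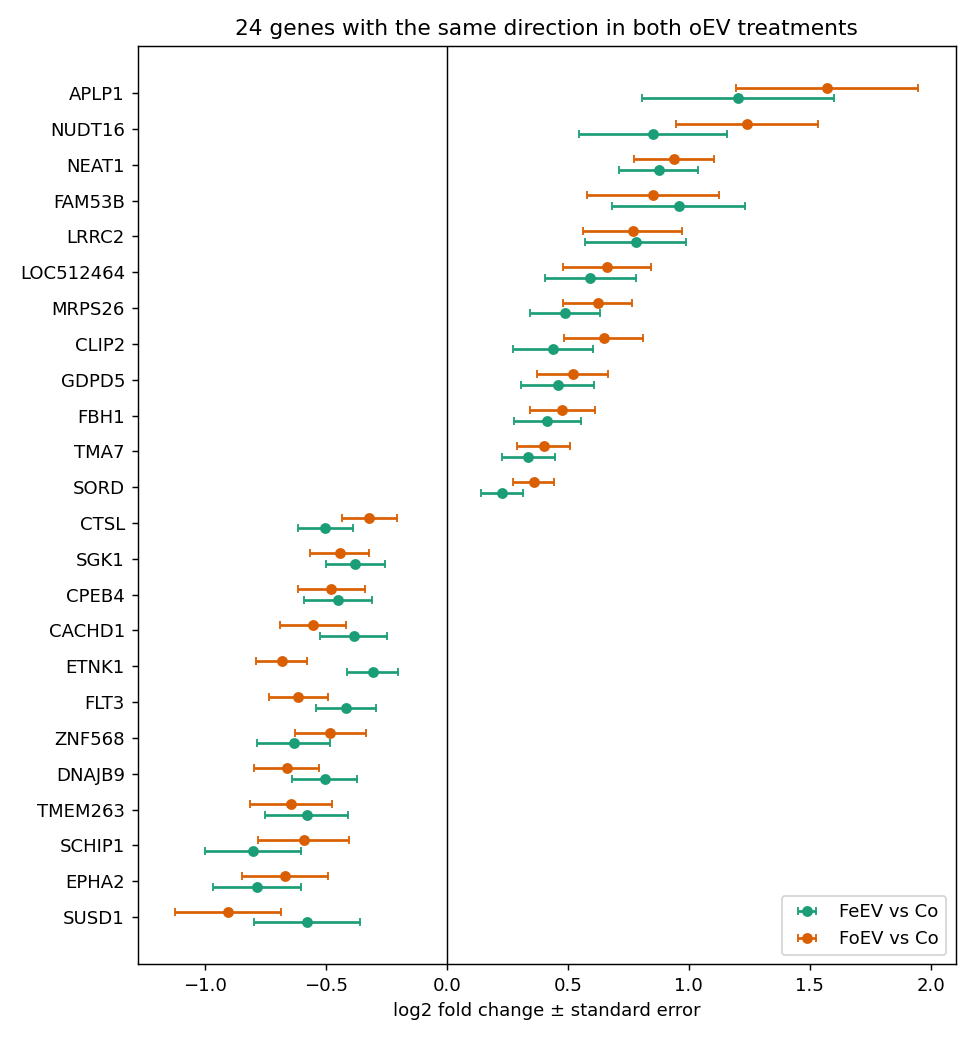
log2 fold change against Co (horizontal axis) with its standard error for FeEV and FoEV in the 24 genes named by rank, 12 higher and 12 lower. The genes were chosen for an unadjusted p under 0.05 and the same direction in both contrasts, so that the common side of 0 is part of the choice, and ETNK1 is the gene with the widest gap between FeEV (-0.31) and FoEV (-0.68) relative to its standard errors.

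**Figure D3:**
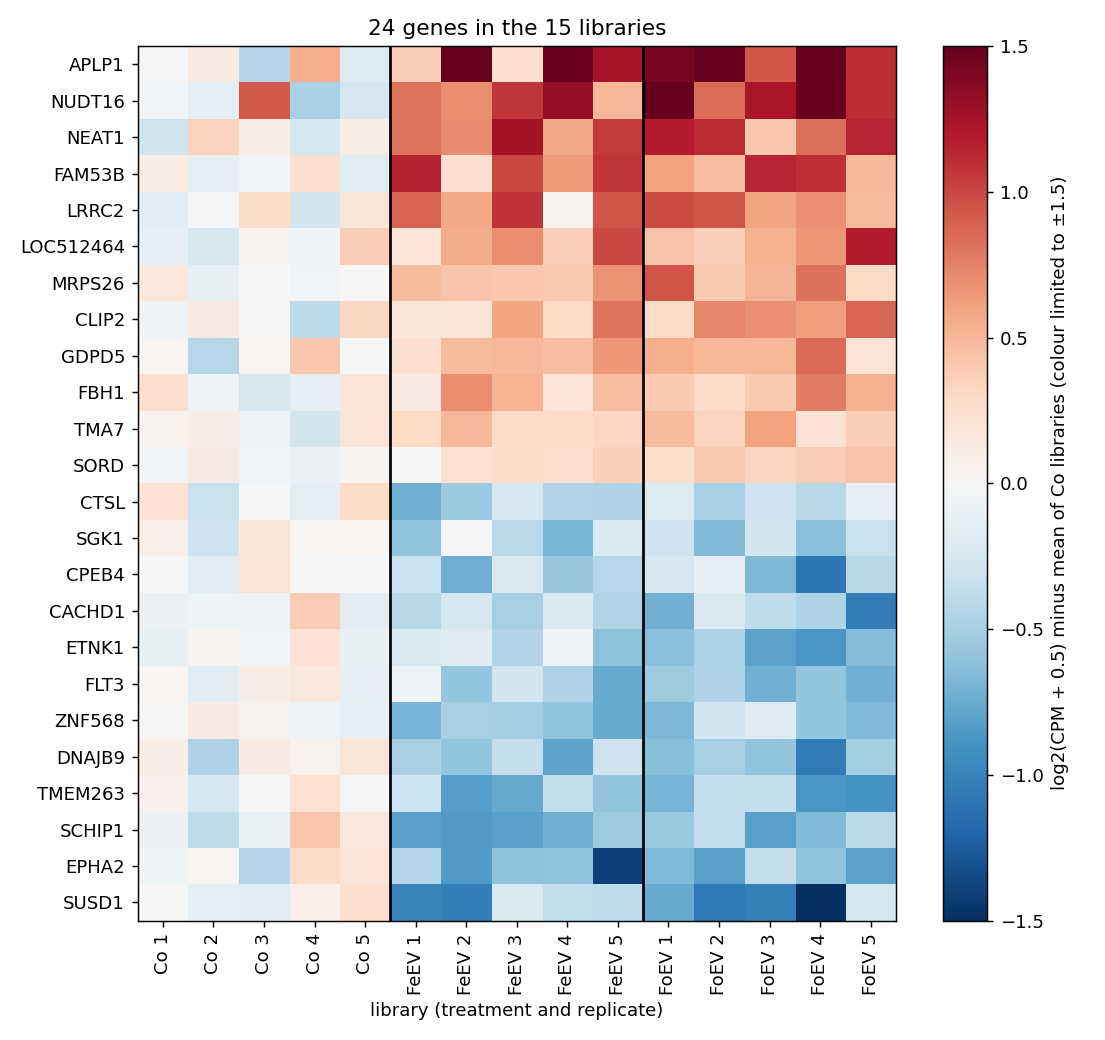
The same 24 genes (rows) in the 15 libraries (columns, black lines between the groups). Colour gives log2(CPM + 0.5) minus the mean of the Co libraries, limited to -1.5 and 1.5. Single libraries that leave the pattern are visible, such as Co replicate 3 for NUDT16, Co replicate 2 for DNAJB9, FeEV replicate 1 for FLT3 and SORD and FeEV replicate 4 for LRRC2.

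A total of 26 genes showed no overlap between the 10 oEV and the 5 Co libraries, 15 above Co (0.138% of the genes tested) and 11 below (0.102%). They were singled out after their values were seen, and 19 of them belonged to the 200 genes with the same direction in both treatments. Beside the genes above, those higher in oEV included LRP5, a Wnt co-receptor, with 19.3, 20.2, 19.7, 19.3 and 21.8 CPM in Co, 26.8, 27.1, 27.8, 22.3 and 28.5 in FeEV and 32.6, 29.5, 23.7, 39.4 and 23.4 in FoEV. The Co libraries of LRP5 lay within a narrow range, and FeEV replicate 4 and FoEV replicates 3 and 5 lay just above it. The nucleoporin POM121C had 45.96 to 55.8 CPM in Co and 57.5 to 69.1 in oEV. POLR2M, a subunit associated with RNA polymerase II, had 23.3 to 32.6 CPM in Co and 34.3 to 44.7 in oEV.

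Further genes without overlap that were higher in oEV were the glucose-phosphorylating ADPGK, the DNA helicase DDX11, TMEM219, SPATA2 and the histone gene H2AC19, whose reads cannot be told apart from those of near-identical histone copies. For ADPGK the gap between the groups was narrow, with 26.3 to 28.9 CPM in Co and 28.97 to 40.5 in oEV. Below Co lay SULT1E1, the estrogen sulfotransferase, with 5.47, 6.41, 5.80, 5.62 and 9.85 CPM in Co, 4.77, 1.86, 3.44, 4.55 and 3.35 in FeEV and 2.32, 4.79, 3.03, 0.334 and 3.82 in FoEV. Its levels were low in every library, and its log2 fold change of -1.02 (standard error 0.31, unadjusted p = 0.00329) carried the widest error of the genes without overlap. SLC39A8, a zinc importer, had 32.5 to 37.4 CPM in Co and 16.7 to 31.6 in oEV. The sterol transfer protein GRAMD1C had 143 to 184 and 90.8 to 138, and the membrane protease ADAM10 had 283 to 324 and 194 to 281. The remaining lower genes were TRAF2, an adaptor of tumour necrosis factor receptors, SEC24A, a coat protein of transport vesicles, and MCL1, which is described with the apoptosis genes.

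The 200 genes with the same direction in both treatments were mostly protein-coding (196 genes) and had a median level of 29.1 CPM, close to the 27.9 CPM of all genes tested. The median absolute log2 fold change was 0.40 with fresh and 0.48 with frozen vesicles, 48 genes had at least a 1.5-fold difference in oEV vs. Co, and in 135 the difference was larger with frozen vesicles. FoEV differed from FeEV at an unadjusted p under 0.05 in 8 of the 200 genes, against 8.52% of all genes tested. Since genes near Co in either treatment cannot enter the set, the low number follows in part from the choice. Just inside the threshold lay ATG5, an autophagy protein, with an unadjusted p of 0.0496 in FeEV vs. Co, and BICDL2 with 0.0497. Just outside lay GRPEL2 with 0.0502 and PAXX with 0.0505.

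Genes of the mitochondrial ribosome and of oxidative phosphorylation had list medians above 0 with both preparations, with the larger values in FoEV vs. Co. Of the 78 mitochondrial ribosomal protein genes, 62 had a higher mean in oEV, and 12 were higher and 0 lower at an unadjusted p under 0.05, against 5.06% and 4.39% of all genes tested. The median log2 fold change of these genes was 0.14 in oEV vs. Co, 0.07 in FeEV vs. Co and 0.21 in FoEV vs. Co, beside 0.010, 0.0039 and 0.015 over all genes. MRPS26, MRPL28, MRPL41 and MRPL58 had an unadjusted p under 0.05 with both preparations. MRPL28 (gene 508216) had 13.5, 11.5, 11.3, 12.04 and 12.7 CPM in Co, 15.2, 16.3, 18.5, 15.03 and 17.3 in FeEV and 17.4, 14.9, 17.6, 24.04 and 15.5 in FoEV, without overlap. MRPL41 had 6.41 to 11.1 CPM in Co and 8.13 to 17.4 in oEV, and MRPL58, which releases stalled peptides from the mitochondrial ribosome, had 16.1 to 24.97 and 21.6 to 33.1.

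Of the 80 genes for oxidative phosphorylation, which encode the respiratory chain and ATP synthase, 72 had a higher mean in oEV, with 10 higher and 0 lower at an unadjusted p under 0.05 (5.06% and 4.39% over all genes). The median log2 fold change was 0.11 in oEV vs. Co, 0.06 in FeEV vs. Co and 0.18 in FoEV vs. Co. NDUFA7 and NDUFS7, subunits of complex I, had an unadjusted p under 0.05 with both preparations. NDUFA7 had 27.7, 33.4, 23.5, 24.5 and 33.7 CPM in Co, 31.6, 37.9, 33.8, 33.2 and 42.7 in FeEV and 39.6, 34.8, 51.2, 45.1 and 39.5 in FoEV. For NDUFA7, 8 of 10 oEV libraries lay above all Co libraries, and for NDUFS7 7 of 10. The ATP synthase subunit ATP5MC1 and the complex I subunit NDUFB7 had log2 fold changes of 0.23 and 0.23 in FeEV vs. Co and of 0.47 and 0.46 in FoEV vs. Co. The counts of both mitochondrial lists depended on single Co libraries, since 7 mitochondrial ribosomal genes passed without Co replicate 4 and 6 oxidative phosphorylation genes without Co replicate 3 or without Co replicate 4. In FeEV vs. Co, 4 and 4 members of the lists passed (5.13% and 5%), close to the 4.15% of all genes. In FoEV vs. Co, 19 and 17 passed (24.4% and 21.25%), beside 15.1% of all genes. In FoEV vs. FeEV, 13 mitochondrial ribosomal genes were higher and 2 lower, and 7 oxidative phosphorylation genes were higher and 1 lower, against 4.83% and 3.69% of all genes. The list medians stayed above 0 with each library left out, at 0.10 to 0.15 and 0.08 to 0.15. These 10 genes of oxidative phosphorylation are encoded in the nucleus.

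For cytosolic ribosomal protein genes and the small RNAs of the nucleolus and the spliceosome, the list medians were below 0 with fresh and above 0 with frozen vesicles. The 76 cytosolic ribosomal protein genes had a median log2 fold change of -0.03 in FeEV vs. Co and 0.16 in FoEV vs. Co, and 23 of them were higher in FoEV than in FeEV at an unadjusted p under 0.05 with 0 lower, against 4.83% higher and 3.69% lower over all genes. Reads of ribosomal protein genes may be shared with their processed copies. The 85 snoRNA genes had medians of -0.05 and 0.85, with 31 higher and 0 lower in FoEV vs. FeEV. The 17 snRNA genes had -0.13 and 0.60, with 7 higher and 0 lower. In oEV vs. Co, 4, 8 and 1 members of the 3 lists were higher at an unadjusted p under 0.05, and 1 snoRNA gene was lower, against 5.06% and 4.39% of all genes. These counts of higher genes ranged from 1 to 12, from 5 to 15 and from 0 to 5 with each library left out. All 3 lowest counts were reached without Co replicate 3, the highest of the first 2 lists without Co replicate 5 and that of the snRNA genes without Co replicate 1.

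A single snoRNA gene belonged to the 200 genes, LOC112441711, which the study's supplement names as SNORD15 and which guides the chemical modification of ribosomal RNA. It had 13.9, 12.1, 13.2, 10.03 and 14.4 CPM in Co, 14.6, 21.5, 12.8, 23.2 and 49.2 in FeEV and 32.6, 23.96, 36.9, 51.4 and 51.5 in FoEV. In FeEV, replicates 1 and 3 lay at the level of Co and replicate 5 lay far above the others, so that its log2 fold change of 0.94 in FeEV vs. Co (unadjusted p = 0.0153) came from replicates 2, 4 and 5. snoRNA genes often lie in introns of other genes and have similar copies, and the strand setting of the counting is not given in the sources used here, so that their reads may in part come from host genes.

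Several genes that mark stress of the endoplasmic reticulum had lower levels in supplemented embryos, while the median of their list was close to 0. Of the 25 genes of the unfolded protein and integrated stress response, 19 had a lower mean in oEV, and 6 were lower and 1 was higher at an unadjusted p under 0.05, against 4.39% lower and 5.06% higher over all genes. The median log2 fold change was -0.07 in oEV vs. Co, -0.07 in FeEV vs. Co and -0.08 in FoEV vs. Co, and in oEV vs. Co it ranged from -0.14 without Co replicate 2 to -0.03 without Co replicate 3. In FeEV vs. Co 2 members passed (8%, beside 4.15% of all genes) and in FoEV vs. Co 9 (36%, beside 15.1%). DNAJB9 and PPP1R15A were lower with both preparations. PPP1R15A, the phosphatase subunit that reverses the block of translation, had 39.01, 17.5, 30.3, 27.3 and 22.2 CPM in Co, 19.4, 11.9, 20.02, 16.4 and 17.9 in FeEV and 21.3, 16.1, 20.9, 22.7 and 15.5 in FoEV. Co replicate 2 lay within the oEV range, and 4 of 10 oEV libraries lay below all Co libraries. EIF2AK3 (PERK), a sensor kinase of the endoplasmic reticulum, had 29.7 to 44.1 CPM in Co and 21.03 to 42.7 in oEV, and the chaperone HSPA13 had 30.3 to 47.4 and 20.03 to 34.2. ATF4, the main transcription factor of the integrated stress response, was the member on the other side, with a log2 fold change of 0.29 (unadjusted p = 0.0333). With a library left out, the edgeR unadjusted p reached 0.0976 for ATF4 and 0.0554 for HSPA13.

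The AP-1 and MAP kinase genes, which include immediate early genes that respond within minutes to serum, growth factors and handling, had the lowest median of the signalling lists in oEV vs. Co and in FoEV vs. Co, but not in FeEV vs. Co, where FGF signalling had -0.18. Of 26 genes tested, 22 had a lower mean in oEV, and 6 were lower and 0 higher at an unadjusted p under 0.05, against 4.39% and 5.06% of all genes. With each library left out, 4 to 9 were lower, the fewest without Co replicate 4 and the most without Co replicate 2. In FeEV vs. Co 6 members passed (23.1%, beside 4.15% of all genes) and in FoEV vs. Co 5 (19.2%, beside 15.1%). The median log2 fold change was -0.22 in oEV vs. Co, -0.17 in FeEV vs. Co and -0.24 in FoEV vs. Co, and it ranged from -0.23 to -0.16 in oEV vs. Co with each library left out. FOS had 60.5, 27.7, 46.1, 46.6 and 66.1 CPM in Co, 39.3, 30.5, 28.2, 27.8 and 16.8 in FeEV and 46.5, 32.3, 26.7, 28.4 and 25.4 in FoEV. Co replicate 2 lay at the level of the oEV libraries, and only 3 of these lay below it. MAP3K1, a kinase upstream of JNK, had 121 to 175 CPM in Co and 107 to 129 in oEV, the AP-1 partner FOSL2 had 42.5 to 52.6 and 31.8 to 50.1, and ATF2 had 68.4 to 82.99 and 47.2 to 76.9. FOS and MAP3K1 were the members with an unadjusted p under 0.05 with both preparations.

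Genes of intrinsic apoptosis were divided in their mean, with 10 of 20 higher in oEV and a median log2 fold change of 0.01, but the 4 with an unadjusted p under 0.05 were all lower, against 4.39% lower over all genes. Without Co replicate 3 there were 2. APAF1, which forms the apoptosome, had 37.9, 40.1, 39.3, 54.2 and 41.04 CPM in Co, 36.1, 40.1, 29.4, 28.7 and 35.8 in FeEV and 27.3, 34.8, 30.3, 28.7 and 31.3 in FoEV. For APAF1, 9 of 10 oEV libraries lay below all Co libraries, and Co replicate 4 was the highest. Of these 4 genes, MCL1 and XIAP act against apoptosis. MCL1, a survival factor of the BCL2 family, had 261, 261, 263, 267 and 288 CPM in Co, 241, 258, 242, 259 and 244 in FeEV and 213, 226, 240.0, 204 and 229.5 in FoEV, so that the groups did not overlap although the log2 fold change was -0.19 (standard error 0.07). XIAP, an inhibitor of caspases, had 66.00 to 97.5 CPM in Co and 44.6 to 90.2 in oEV, and its log2 fold change of -0.32 had an unadjusted p of 0.05 or more in 9 of the 15 fits that leave out a library.

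Of the 19 genes of the Hippo pathway and targets of its effector YAP, which separates trophectoderm from inner cell mass, 2 had an unadjusted p under 0.05 (10.5%), close to the 9.44% of all genes, and the list median was -0.07. Both were lower. THBS1, a secreted matrix protein, had 16.4, 26.99, 39.99, 30.1 and 37.8 CPM in Co, 26.8, 7.80, 18.1, 18.7 and 10.1 in FeEV and 26.6, 16.9, 8.54, 14.7 and 13.1 in FoEV, with a log2 fold change of -0.90 (standard error 0.27). CCN1, another matrix protein, had 46.6 to 83.2 CPM in Co and 29.6 to 70.4 in oEV, with the highest oEV levels in replicate 1 of both preparations. For THBS1, replicate 1 was likewise the highest library in FeEV and in FoEV, and Co replicate 1 was the lowest in Co. Both genes are also known to respond to serum.

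The medians of 2 smaller signalling lists were below 0 as well. Of 12 genes of the IL6 family and JAK-STAT signalling, 9 had a lower mean in oEV. At an unadjusted p under 0.05, 3 were lower and 0 higher, against 4.39% and 5.06% of all genes. In FeEV vs. Co 0 members passed (4.15% of all genes), and in FoEV vs. Co 3 (25%, beside 15.1%). The median log2 fold change was -0.17 in oEV vs. Co, -0.16 in FeEV vs. Co and -0.15 in FoEV vs. Co. Without Co replicate 4 the median in oEV vs. Co was -0.10. JAK1 had 78.9 to 98.1 CPM in Co and 70.1 to 87.3 in oEV, the feedback inhibitor SOCS6 had 88.2 to 101 and 63.2 to 89.9, and the shared receptor chain IL6ST had 118 to 173 and 69.5 to 158. Of 13 sirtuin and p53 genes, 9 had a lower mean in oEV, with 3 lower and 0 higher at that threshold, against 4.39% and 5.06% of all genes. Their median was -0.19 in oEV vs. Co, -0.16 in FeEV vs. Co and -0.21 in FoEV vs. Co. In oEV vs. Co that median ranged from -0.25 to -0.08 with each library left out and was closest to 0 without Co replicate 2, and 5 genes were lower without FeEV replicate 1. The deacetylase SIRT1 had 251 to 315 CPM in Co and 188 to 293 in oEV. ZMAT3 and PLK2, targets of p53, had log2 fold changes of -0.55 and -0.64, with PLK2 at 37.7 to 147 CPM in oEV, where FoEV replicate 1 lay above all Co libraries.

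**Figure D4:**
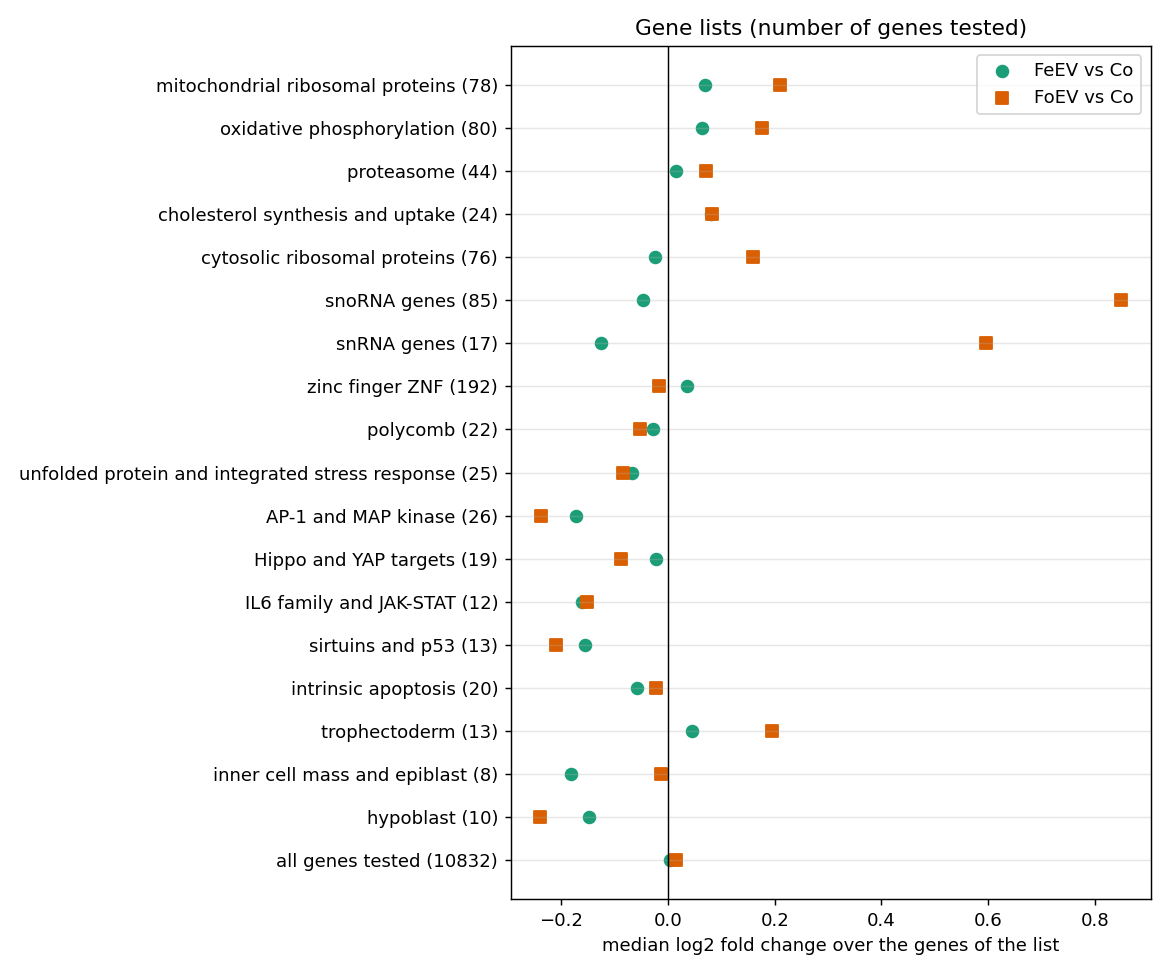
Median log2 fold change of 18 gene lists and of all genes tested in FeEV vs. Co (circles) and FoEV vs. Co (squares), with the number of genes tested in parentheses. The lists were chosen with earlier results known and carry no test. Both symbols lie above 0 for the mitochondrial lists (0.07 and 0.21, 0.06 and 0.18), among others. They also do for cholesterol genes (0.08 and 0.08), where they overlie each other. Both lie below 0 for AP-1 and MAP kinase genes (-0.17 and -0.24). The snoRNA genes lie at -0.05 with fresh and 0.85 with frozen vesicles.

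The proteasome list had 6 genes higher (13.6%) and 1 lower of 44 at an unadjusted p under 0.05 in oEV vs. Co, against 5.06% and 4.39% of all genes, but 3 higher without Co replicate 2 or without Co replicate 4. In FeEV vs. Co 1 was higher and 1 lower (4.55% passed, beside 4.15% of all genes). In FoEV vs. Co 9 were higher and 2 lower (25%, beside 15.1%). Higher with both preparations at this threshold were 0 proteasome genes, and 5 were higher and 0 lower in FoEV vs. FeEV. The catalytic core subunit PSMB6 had 26.99 to 33.9 CPM in Co and 31.8 to 43.5 in oEV, and the lower gene PSME1, a subunit of the 11S activator, had 15.8 to 23.8 and 12.4 to 21.5. Of the 8 blastocoel transport genes tested, ATP1B1, a subunit of the sodium pump that drives fluid into the cavity, was the 1 with an unadjusted p under 0.05 and was lower with both preparations, at 16.8, 15.9, 10.96, 12.04 and 16.4 CPM in Co, 11.3, 5.94, 11.6, 9.11 and 10.3 in FeEV and 11.8, 7.82, 9.92, 6.68 and 12.3 in FoEV. Here 6 of 10 oEV libraries lay below all Co libraries. Polycomb genes had 1 higher and 4 lower of 22 in oEV vs. Co, and 22.7% thus passed, but there were 0 lower without Co replicate 4, 1 without Co replicate 2 and 2 without Co replicate 5 or FoEV replicate 1. In FeEV vs. Co 0 polycomb genes passed, and in FoEV vs. Co 6 (27.3%, beside 15.1% of all genes). ZNF genes had 4 higher and 9 lower of 192, a share of 6.77%, against 9.44% of all genes.

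In the remaining lists, at most 5 members in each direction had an unadjusted p under 0.05 in oEV vs. Co, and several of these small counts moved by over 1.5 times with a library left out. They are to be read against 5.06% higher and 4.39% lower over all genes. There were 5 higher and 2 lower of 52 translation factors, 4 and 0 of 34 mitochondrial SLC25 carriers, 1 and 0 of 37 aminoacyl tRNA synthetases, and 2 and 0 of 24 genes for cholesterol synthesis and uptake. Fatty acid and lipid droplet genes had 2 and 0 of 25, glucose transport and glycolysis 2 and 2 of 23, antioxidant defence 2 and 2 of 22, heat shock proteins and chaperones 1 and 1 of 22, and DNA methylation 1 and 0 of 8. Cell cycle genes had 2 and 2 of 27, autophagy 1 and 2 of 21, junctions 0 and 1 of 22, vesicle release and endosomal sorting 2 and 1 of 25, actin and thymosin genes 0 and 1 of 21, and FGF signalling 0 of 7. Of the translation factors, 0 passed in FeEV vs. Co and 17 in FoEV vs. Co (32.7%, beside 15.1% of all genes).

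Lineage markers of the blastocyst, the labelled tissue, were present in every library. The summed level of 15 trophectoderm markers was 8160.0 to 10955 CPM in Co, 8118 to 12946 in FeEV and 9317 to 15332 in FoEV, that of 11 inner cell mass and epiblast markers 531 to 785, 537 to 736 and 508 to 722, and that of 12 hypoblast markers 6357 to 10162, 6214 to 8861 and 5690.5 to 7839.5. The ranges of all 3 lists overlapped between the groups. FN1 alone made up most of the hypoblast sum, with 5188 to 8580 CPM in Co, 5116 to 7373 in FeEV and 4359 to 6475 in FoEV. KRT8, KRT18 and PTGS2 made up most of the trophectoderm sum, so that both sums follow few genes. Of 13 trophectoderm markers tested, 8 had a higher and 5 a lower mean in oEV. The markers that passed at an unadjusted p of 0.05 were all higher (23.1%, against 5.06% of all genes). They were the keratins KRT18 and KRT8 and the transcription factor GATA3, with log2 fold changes of 0.41, 0.21 and 0.18. Their number ranged from 2 to 4 with each library left out. In these fits the edgeR unadjusted p reached 0.141 for KRT8 and 0.0534 for GATA3. With the preparations kept apart, 0 of the 13 markers passed in FeEV vs. Co (4.15% of all genes). In FoEV vs. Co 4 passed (30.8%, beside 15.1% of all genes). The 5 markers with a lower mean in oEV had log2 fold changes down to -0.41 in oEV vs. Co. The list median was 0.05 with fresh and 0.19 with frozen vesicles, and CDX2, which defines the lineage, had 25.2 to 45.96 CPM in Co and 25.6 to 55.9 in oEV.

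NANOG, a transcription factor of the epiblast, was the lineage marker with an unadjusted p under 0.05 with both preparations. NANOG (gene 538951) had 91.2, 78.6, 46.4, 94.3 and 91.5 CPM in Co, 38.4, 40.5, 64.1, 50.1 and 67.3 in FeEV and 22.9, 50.5, 68.3, 45.7 and 37.6 in FoEV. Co replicate 3 lay within the oEV range, and the other Co libraries lay above all oEV libraries. The log2 fold change was -0.73 in oEV vs. Co (standard error 0.22, edgeR adjusted p = 0.456), -0.62 in FeEV vs. Co and -0.84 in FoEV vs. Co. The pluripotency factors SOX2 and POU5F1 had -0.16 (unadjusted p = 0.472) and 0.17 (unadjusted p = 0.0823), so that NANOG stood alone among the 8 markers of its list. Of 10 hypoblast markers, 8 had a lower mean in oEV, with a median of -0.19 in oEV vs. Co, -0.15 in FeEV vs. Co and -0.24 in FoEV vs. Co. RSPO3, a secreted Wnt enhancer, was the member with an unadjusted p under 0.05 (-0.61), but it did not pass without Co replicate 1 (-0.37) or with the library number as a block (-0.27). The number of lower members ranged from 0 to 4 with each library left out, and fibronectin FN1 and HNF4A had -0.21 and -0.39. The part of lineage proportions in the differences above was not tested.

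The summed levels of markers listed for cells other than those of the embryo overlapped between the groups. The summed level of 11 oviduct epithelium markers, cells that could travel with the vesicles, was 27.4 to 45.2 CPM in Co, 22.1 to 30.3 in FeEV and 23.2 to 50.2 in FoEV, and only 3 of them passed the filter on low counts, with 0 at an unadjusted p under 0.05 in oEV vs. Co. The sum of 10 cumulus and granulosa cell markers was 143 to 352, 136 to 322 and 134 to 400.4, that of 9 blood and stroma markers 94.9 to 120.0, 91.6 to 137 and 102 to 145, with the globin HBB at 0 in every library. Most of the former sum came from HSD3B1 and CYP11A1 (means of 174 and 60.0 CPM in Co), and most of the latter from PECAM1 (73.3 in Co). These sums thus follow few genes, and whether the embryo itself expresses them was not tested. At an unadjusted p under 0.05, the granulosa cell receptor FSHR was lower in oEV (log2 fold change -0.42), and 0 markers of these lists were higher. The number of lower markers in the list of FSHR was 0 without Co replicates 3, 4 or 5, among other left-out libraries. The part of such cells in the differences above was not tested. No oocyte or sperm marker passed the filter on low counts, and they summed to at most 39.8 and 14.5 CPM in any library.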

How the data were processed

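The study prepared strand-selected total RNA libraries with the NuGEN Ovation SOLO kit, which removes rRNA fragments, and sequenced them as single reads. The authors aligned the reads to ARS-UCD1.2, used NCBI's gene models for cattle, and deposited raw read counts per gene in a table of 34773 genes and in a filtered table of 10832 genes. The paper names QuasR Qcount for counting, and the submitters' processing notes name Trim Galore 0.4.3.1, HISAT2 2.1.0 and featureCounts 1.6.3. The paper gives 8 days of culture and the labels 7.

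Groups came from the sample titles. Filtered counts were scaled by TMM and tested with the robust quasi-likelihood F test of edgeR 4.0.16 in R 4.3.3, with Benjamini-Hochberg adjustment over all 10832 genes, once for oEV vs. Co and once with the 3 groups kept apart. Thinning brought each library to 2117200 counts. Totals and rRNA shares were compared with two-sided exact permutation tests over libraries. For distances (log2 CPM, prior count 2), the exact permutation p was the share of assignments with a pseudo-F at least as large. The common biological coefficient of variation was 16.4%. Symbols came from a later RefSeq annotation, ARS-UCD2.0 (10709 genes matched), and the name NEAT1 from the study's supplement. DESeq2 1.42.0, the robust dispersion test that the paper names, other filters and scalings, thinned counts, blocks and leaving out each library were alternatives. The tests were also run on counts simulated from the fitted model, with libraries drawn independently. Such a run does not show how the tests behave where libraries share a culture.

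The genes named were those called in oEV vs. Co, the 12 higher and 12 lower genes with the smallest p among those with the same direction in both treatments, up to 4 genes per list, and lineage markers. The members and lists were chosen with earlier results of these data known. Genes without overlap between the groups were added after their values were seen. No sequence, gene length or coordinate was used here. A few genes that the rules would name are not reported here.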

Additional observations from a re-analysis of the deposited data

Results flagged for a closer look

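Single libraries stood apart from the other 4 of their group in 26 of 246 groups examined, by Dixon's test at the 95% level, which flags about 1 in 20 groups by chance. In Co these were replicate 2 for DNAJB9 (43.5 CPM), EIF2AK3 (29.7) and TRAF2 (17.5), replicate 4 for CACHD1 (94.3) and APAF1 (54.2), replicate 5 for MCL1 (288), SULT1E1 (9.85) and DDX11 (4.51), replicate 3 for NUDT16 (6.13) and SEC24A (170), and replicate 1 for POU5F1 (183). The Co values of DNAJB9, EIF2AK3, NUDT16 and POU5F1 lay towards the oEV libraries, and those of CACHD1, APAF1, MCL1, SULT1E1, DDX11, SEC24A and TRAF2 lay away from them.

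In FeEV they were replicate 5 for MRPS26 (30.4 CPM), FOSL2 (31.8), LOC112441711 (49.2) and CDX2 (55.9), replicate 2 for TMA7 (61.3), TERC (63.1) and SOX2 (39.7), replicate 1 for CCN1 (54.5) and replicate 4 for LRP5 (22.3). In FoEV they were replicate 1 for CCN1 (70.4), PLK2 (147) and JAK1 (82.2), and replicate 4 for DNAJB9 (28.7), FOSL2 (50.1) and TMEM219 (17.0). FoEV replicate 1 lay towards Co for CCN1, PLK2 and JAK1, as did FeEV replicate 1 for CCN1 and FoEV replicate 4 for FOSL2.

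Total counts per library differed between the oEV preparations, with 760585 more in FoEV than in FeEV on average (exact permutation p = 0.0317), so that the depth of the oEV group was uneven. Thinned to equal depth, 187 genes in place of 200 had the same direction in both treatments.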

How the results depend on the processing

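The direction of the log2 fold change in oEV vs. Co stayed the same in all 26 alternative fits for 63 of the 82 genes named and in all 25 fits that could be run for the other 19, which a mean of at least 20 CPM leaves out. The number of genes called in oEV vs. Co (1) was 40 with the robust dispersion and likelihood ratio test, 5 with DESeq2, 2 without a filter on low counts, 0 in a 3-group fit with the mean of both treatments, and 0 with the replicate number of the titles as a block. It was 0 to 2 with each library left out. At an unadjusted p under 0.001 (22 genes) it was 107, 50 and 58 in the first 3 of these fits, 34 with the block, 14 at a mean of at least 20 CPM, and 11 to 37 with a library left out.

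FeEV vs. Co (0 genes called) gave 6 with the likelihood ratio test, 1 with DESeq2 and 0 to 1 with a library left out. FoEV vs. Co (1) gave 311, 144 and 0 to 58 (58 without FoEV replicate 2 and 14 without FoEV replicate 3), 57 with the block and 2 with thinned counts. FoEV vs. FeEV (0) gave 31, 3 and 0 to 1. The 200 genes with the same direction were 306 with the likelihood ratio test, 270 with the block and 134 to 251 with a library left out. The cause of these differences was not tested.

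Whether the replicate numbers pair the libraries is not stated in the sources used here and was not tested. In their deviations from the group means, same-numbered libraries correlated on average by 0.119 over 15 pairs. Of these, 7 pairs were over 0.1, and the lowest value was -0.291. Differently numbered libraries of different groups averaged -0.030. For replicate 5 the values were 0.420 (Co and FeEV), 0.347 (Co and FoEV) and 0.441 (FeEV and FoEV). With the replicate block, NEAT1 had an edgeR adjusted p of 0.0661, and the exact permutation p of the pseudo-F within numbers was 0.0700. Over 26 fits the adjusted p of NEAT1 ranged from 2.87e-08 to 0.221. Genes at a few CPM, such as APLP1, FAM53B and SULT1E1, rested on few reads per library.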

Other observations

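Genes that the authors' filter had removed were also compared between the groups. Of 14638 genes with at least 1 count in the unfiltered table but absent from the filtered one, 3 lay above all Co libraries in all 10 oEV libraries (0.0205%) and 6 below (0.0410%). The higher genes were AKR1E2, an aldo-keto reductase, LOC515276 and C19H17orf107. LOC515276 had 1.03 to 2.56 CPM in Co and 2.65 to 7.64 in oEV. Of the lower genes, TLR3, KLRA1, CPB1, CYP4V2 and LOC112442224 had at most 2.35 CPM in any library, so that a few reads decide the order. These genes were chosen after their values were seen, and no test was run on them.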
